A study of Mus musculus with 3 samples.

Results

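The cells described here are mouse bone marrow cells that carried little CD48 and little CD150 on their surface. They come from a sort of lineage-negative, Sca1-positive, Kit-positive cells (LSK cells), the compartment that holds blood stem cells and early progenitors. Membership was set by measured values. A cell belonged to the gate when its raw count of CD48 antibody tags was at or below the 30th percentile of all listed cells (76 UMIs, unique molecular identifiers, each 1 counted molecule) and its raw count of CD150 antibody tags was below the 40th percentile (72 UMIs). The gate held 419 of 3470 listed cells (12.1%). Of the gate cells, 83 and 105 cells came from the 2 Helios-deficient mice, and 141 and 90 cells from the 2 wild-type mice.

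CD150 (gene Slamf1) and CD48 are receptors of the SLAM family. In mouse marrow, LSK cells with CD150 and without CD48 are enriched for long-term stem cells, cells with CD48 and without CD150 hold lineage-primed progenitors, and cells with neither have been described as multipotent progenitors that repopulate transiently. Helios, the product of Ikzf2, is an Ikaros-related DNA-binding protein, and CD135 (gene Flt3) is the cytokine receptor that marks lymphoid-primed progenitors.

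A single droplet run with 3 prime chemistry covered 4 mice, of which 2 are labelled Helios-deficient and 2 wild type. Each mouse carried its own hashtag, and cells of all 4 mice were stained with tagged antibodies against CD41, CD48, CD150 and CD135. The Helios allele, the strain and the age of the mice are not given in the sources used here, and nothing else was done to either genotype per the labels. Summed over the gate, the 2 Helios-deficient mice gave 541978 and 745994 RNA UMIs and the 2 wild-type mice 881385 and 623853. P-values below measure the spread between 4 mice of 1 run.

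The gate has no natural edge in these data. In the gate, 49 cells lay within 5 CD48 tag UMIs of the upper limit, and 47 CD150-low cells lay 1 to 5 UMIs above it. For CD150, 79 gate cells lay 1 to 4 tag UMIs below the limit and 111 CD48-low cells lay 0 to 4 above it. The CD150 tag had a narrow distribution, with its 30th and 50th percentiles at 68 and 78 UMIs, while the 90th percentile stood at 126. The other listed cells were therefore also split by the same limits into 638 CD48-low CD150-higher cells (the stem cell side), 901 CD48-higher CD150-low cells (the progenitor side) and 1512 cells above both limits.

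**Figure D1:**
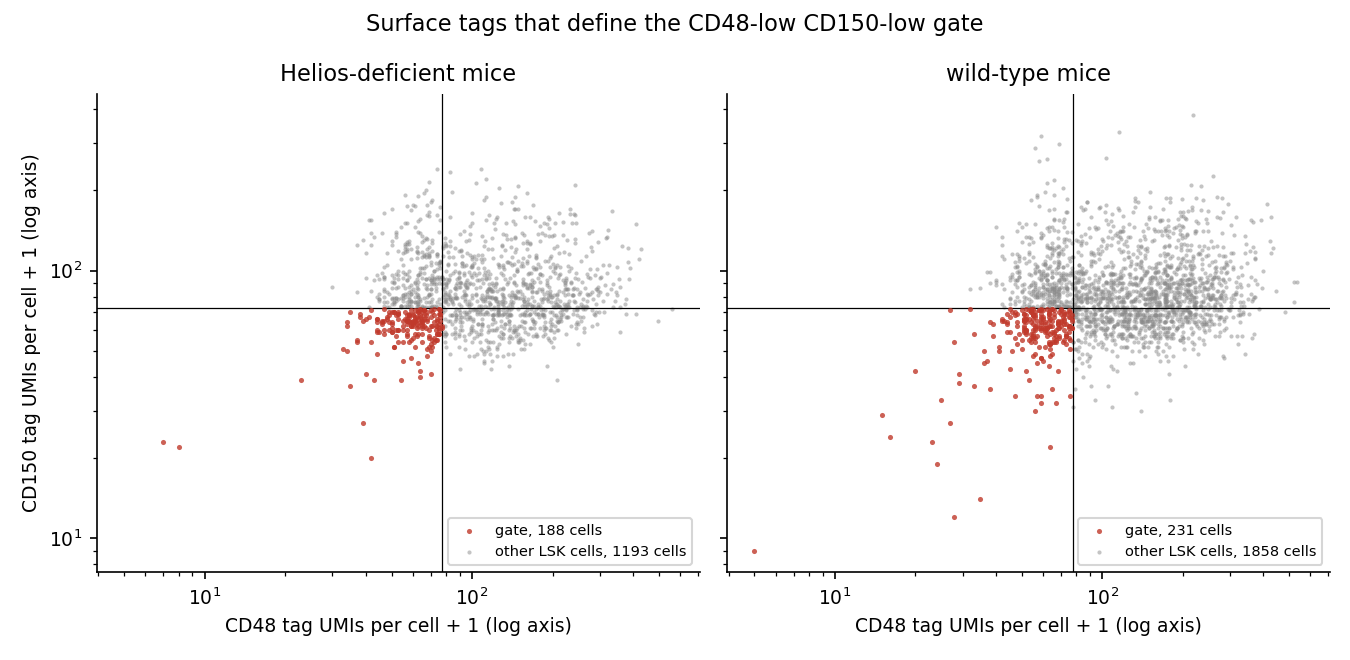
Raw CD48 tag UMIs (horizontal, log axis, 1 added) and CD150 tag UMIs (vertical, log axis, 1 added) of each listed cell, in Helios-deficient mice on the left and wild-type mice on the right, with gate cells in red, other LSK cells in grey and lines at the limits of 76 and 72 UMIs. The 188 gate cells of the Helios-deficient mice and the 231 of the wild-type mice fill the lower left corner of clouds that run across both lines without a gap.

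The genes of the sort and of the gate were read in the RNA of the gate cells. Ly6a, which encodes Sca1, averaged 234 ± 34.8 CPM (RNA UMIs of a gene per 1000000 RNA UMIs of the same mouse and gate, mean ± SD, n = 4 mice) in the gate, and Kit, the stem cell factor receptor gene, averaged 111 ± 8.19 CPM. Cd48 RNA (chromosome 1, 171681245 to 171705258, GRCm38.p6) averaged 47.5 ± 7.31 CPM in the gate, against 12.2 ± 5.27 CPM in CD150-higher cells and 251 ± 15.2 CPM in CD48-higher cells. Slamf1 RNA (chromosome 1, 171767131 to 171801184) averaged 2.10 ± 0.48 CPM in the gate, against 17.9 ± 4.18 CPM in CD150-higher cells and 2.35 ± 0.76 CPM in CD48-higher cells. Slamf1 RNA was lower in both CD150-low groups than in CD150-higher cells. Cd48 RNA was higher in the gate than in CD150-higher cells, although the CD48 tag averaged 56.6 UMIs per gate cell and 60.0 UMIs per CD150-higher cell. These levels are given as a description with no test, since the tags for the same genes chose the cells, and they do not test the potency that the name multipotent progenitor refers to.

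Gate cells held less RNA than the rest. The median was 6135 RNA UMIs per gate cell and 8329 per other LSK cell, with 6746.5 in CD150-higher and 8631 in CD48-higher cells. The gate median was below that of other LSK cells and of CD48-higher cells in each of the 4 mice. Against CD150-higher cells the order turned in wild-type mouse 2, with medians of 6290 in the gate and 6187 in CD150-higher cells. Over all listed cells the raw CD48 tag count rose with the RNA UMIs of the cell (Spearman's rho 0.51 over 3470 cells that share 1 run), and the CD150 tag count hardly did (0.08). A limit on raw CD48 tags thus also selects small cells. When each cell was thinned to 3000 UMIs, the median number of detected genes was 1405 in the gate and 1393 in other LSK cells. The median share of mitochondrial UMIs was 2.61% in the gate and 2.504% in the other cells. The gene comparisons of the gate with other cells, and that of the genotype effects, were therefore also made among cells of 1 RNA range. It lay between 4291.8 and 9128.6 UMIs (the 10th and 90th percentiles of the gate). This keeps 335 gate cells, 460 CD150-higher cells, 469 CD48-higher cells and 1655 other LSK cells in all. Their medians still differed, at 6135, 6386.5, 6996 and 6737 RNA UMIs in the same order. The CD135 split, the genotype comparison within the gate and the cluster shares were not made in this range.

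**Figure D2:**
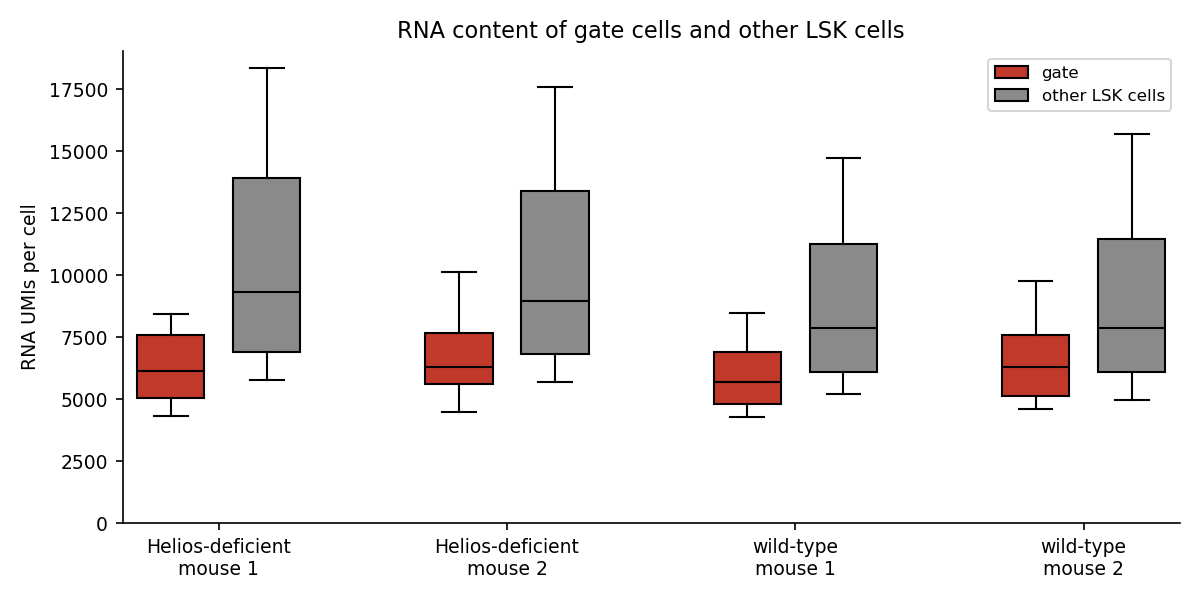
RNA UMIs per cell (vertical, linear axis) in gate cells (red) and other LSK cells (grey) of each mouse, with the box at the quartiles, the line at the median and the whiskers at the 10th and 90th percentiles. The gate medians lie between 5682 and 6306 UMIs and those of other LSK cells between 7858.5 and 9343.5.

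Transcripts of mature blood cells were rare in the gate. In 9 of the 419 gate cells at least 3 genes of one mature marker list of 10 genes were detected, as in 139 other LSK cells. The B cell markers Ms4a1, Pax5 and Ebf1 and the T cell markers Cd3e, Cd3d, Cd3g and Trac had 0 UMIs in the gate cells of all 4 mice. The summed B cell markers, which include Cd74 and Igkc, came to 321 and 261 CPM in Helios-deficient and 229 and 180 CPM in wild-type gate cells. In other LSK cells they came to 161 and 1171 CPM in Helios-deficient and 4623 and 188 CPM in wild-type mice. The summed T and NK cell markers lay between 97.8 and 174 CPM in the gate and between 252 and 296 CPM in other LSK cells. Most of these sums was Nkg7, which is also in the granulocyte and monocyte list used below. Nkg7 alone stood at 116, 109, 170 and 96.2 CPM in the gate and at 248, 247, 289 and 265 CPM in other LSK cells. Summed macrophage markers reached 18.5 and 30.8 CPM in Helios-deficient gate cells and 21.6 and 52.9 CPM in wild-type gate cells. Summed neutrophil markers reached at most 12.1 CPM in the gate of any mouse.

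Set against CD48-low CD150-higher cells, the gate held more RNA of lymphoid and early myeloid genes and less of megakaryocyte and stem cell aging genes. Of 7541 genes tested, 167 were called higher in the gate (2.21%) and 170 lower (2.25%), where a call means an adjusted p under 0.05 in edgeR's quasi-likelihood test on UMI sums with the mouse as block. Within the common RNA range, 66 of 6203 genes were higher (1.06%) and 61 lower (0.983%). Of the 337 genes called over all cells, 288 were tested there and 280 kept their sign, with a median size of 0.39 in that range and 0.52 over all cells on the log2 scale. The cells of the range are among those that gave the calls, here and in the comparisons below. Kept signs are therefore no independent support.

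Of 17 measured genes of lymphoid priming, 12 were higher in the gate and 0 lower, with a median log2 fold change of 0.67 against 0.01 over all genes tested. Dntt, the gene of the DNA polymerase that adds bases at antigen receptor joints, stood at 42.4, 44.2, 77.2 and 64.1 CPM in the gate of Helios-deficient mice 1 and 2 and wild-type mice 1 and 2, against 10.7, 16.2, 4.33 and 4.20 CPM in their CD150-higher cells. Every gate value lay above every CD150-higher value (log2 fold change 2.72 ± 0.26 SE, edgeR adjusted p = 4.27e-13). Flt3 stood at 101, 118, 150 and 111 CPM in the gate, against 28.6, 30.2, 53.8 and 44.1 CPM in CD150-higher cells of the same mice, again without overlap (1.61 ± 0.13). Satb1, a chromatin organiser of lymphocytes, averaged 41.8 ± 8.18 CPM in the gate and 11.6 ± 2.01 CPM in CD150-higher cells. In the common RNA range 9 of 16 tested genes of the list were called higher, with a median of 0.68, and Dntt (2.58), Satb1 (1.52) and Flt3 (1.39) stayed called. Outside the list, Tespa1, a gene of T cell receptor signalling, averaged 57.5 ± 10.3 CPM in the gate and 16.6 ± 4.53 CPM in CD150-higher cells (1.75, and 1.62 in the common range). In sums over cells, a difference in the share of expressing cells and a difference in RNA per cell cannot be told apart.

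Early myeloid genes were also higher, at low levels. Mpo, the myeloperoxidase of granulocyte precursors, stood at 31.4, 28.2, 49.9 and 35.3 CPM in the gate, against 7.14, 10.3, 17.3 and 14.7 CPM in CD150-higher cells (1.52 ± 0.24, and 1.21 in the common range). In the granulocyte and monocyte list, 6 of 10 measured members were higher (Mpo, Prtn3, Cebpa, Csf3r, Tyrobp and Nkg7) and 0 lower, with a median of 0.65. In the common range 4 of 10 were called. Of 16 genes listed for multipotent progenitors, 7 were higher and 0 lower. Cd34, a sialomucin of early progenitors, stood at 362, 465, 472 and 454 CPM in the gate against 229, 194, 290 and 210 CPM in CD150-higher cells (0.93 ± 0.08, and 0.79 in the common range). Sox4, a transcription factor of early lymphoid development, averaged 704 ± 51.7 CPM in the gate and 417 ± 58.7 CPM in CD150-higher cells (0.74 ± 0.06, but −0.12 in a gate set on tags per RNA UMI). The tag gene Cd48 is 1 of these 7.

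Platelet and stem cell genes went the other way. Of 15 measured megakaryocyte and platelet genes 10 were lower and 0 higher, with a median of −0.81, and in the common range 6 of 12 were lower. Cavin2, a caveola component of platelets and endothelium, stood at 9.23, 6.70, 4.54 and 9.62 CPM in the gate, against 60.7, 78.8, 34.0 and 57.8 CPM in CD150-higher cells. The lowest CD150-higher value was above the highest gate value (−2.96 ± 0.26, edgeR adjusted p = 3.49e-25). Vwf, the von Willebrand factor of platelet-biased stem cells, averaged 2.68 ± 1.11 CPM in the gate and 21.3 ± 8.23 CPM in CD150-higher cells (−2.999 ± 0.42). Both were too low to be tested in the common range. Gp9, a subunit of the platelet receptor for von Willebrand factor, averaged 26.8 ± 10.6 against 61.1 ± 15.6 CPM (−1.25 ± 0.19, and −1.04 in the common range). Pf4, platelet factor 4, varied widely between mice, at 103, 91.2, 71.5 and 168 CPM in the gate against 220, 471, 125 and 462 CPM, and was not called (−1.54, edgeR adjusted p = 0.0566). Of 14 genes of stem cell aging, 8 were lower and 0 higher, among them Vwf, Cavin2 and Aldh1a1, a retinaldehyde dehydrogenase gene. The tag gene Slamf1 is 1 of these 8. In the common range 4 of 10 were lower. Gata2, Gfi1b and Gata1, transcription factors of the megakaryocyte and erythroid lineages, were lower, with Car2 and Apoe, so that 5 of 12 genes of that list fell and 0 rose.

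The stem cell identity list split. Of 27 measured members 11 were lower in the gate and 3 higher (median −0.29), and in the common range 9 were lower and 1 higher of 24. Mllt3, a chromatin reader of stem cells, stood at 33.2, 63.0, 53.3 and 73.7 CPM in the gate against 83.3, 122, 109 and 129 CPM in CD150-higher cells. In each mouse the gate was the lower one (−0.99 ± 0.13, and −1.08 in the common range). Pdzk1ip1 (−0.65 ± 0.10) and Trim47 (−0.95 ± 0.13) were lower as well. Hlf, a stem cell transcription factor, was higher in the gate, at 214, 244, 276 and 252 CPM against 161, 187, 182 and 212 CPM (0.42 ± 0.09). Ly6a was higher too (0.38 ± 0.09), but not within the common range (0.19, edgeR adjusted p = 0.422). Procr, the endothelial protein C receptor of stem cells, averaged 82.4 ± 5.36 CPM in the gate and 78.2 ± 6.57 CPM in CD150-higher cells, a log2 difference of 0.08 ± 0.13 that was not called. In a gate set on tags per RNA UMI, Hlf (−0.54) and Ly6a (−0.60) had the opposite direction. Genes of S phase were lower in 13 of 35 cases and higher in 0, but 0 of 25 were called in the common range, where their median was 0.02. Interferon response genes were higher in 7 of 22 cases and lower in 0, and 2 of 21 were called in the common range. Rtp4, an interferon-induced antiviral gene, averaged 149 ± 15.4 CPM in the gate and 79.8 ± 11.8 CPM in CD150-higher cells (0.92 ± 0.11, and 0.78 in the common range). With tags per RNA UMI the value of Rtp4 was −0.29.

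**Figure D3:**
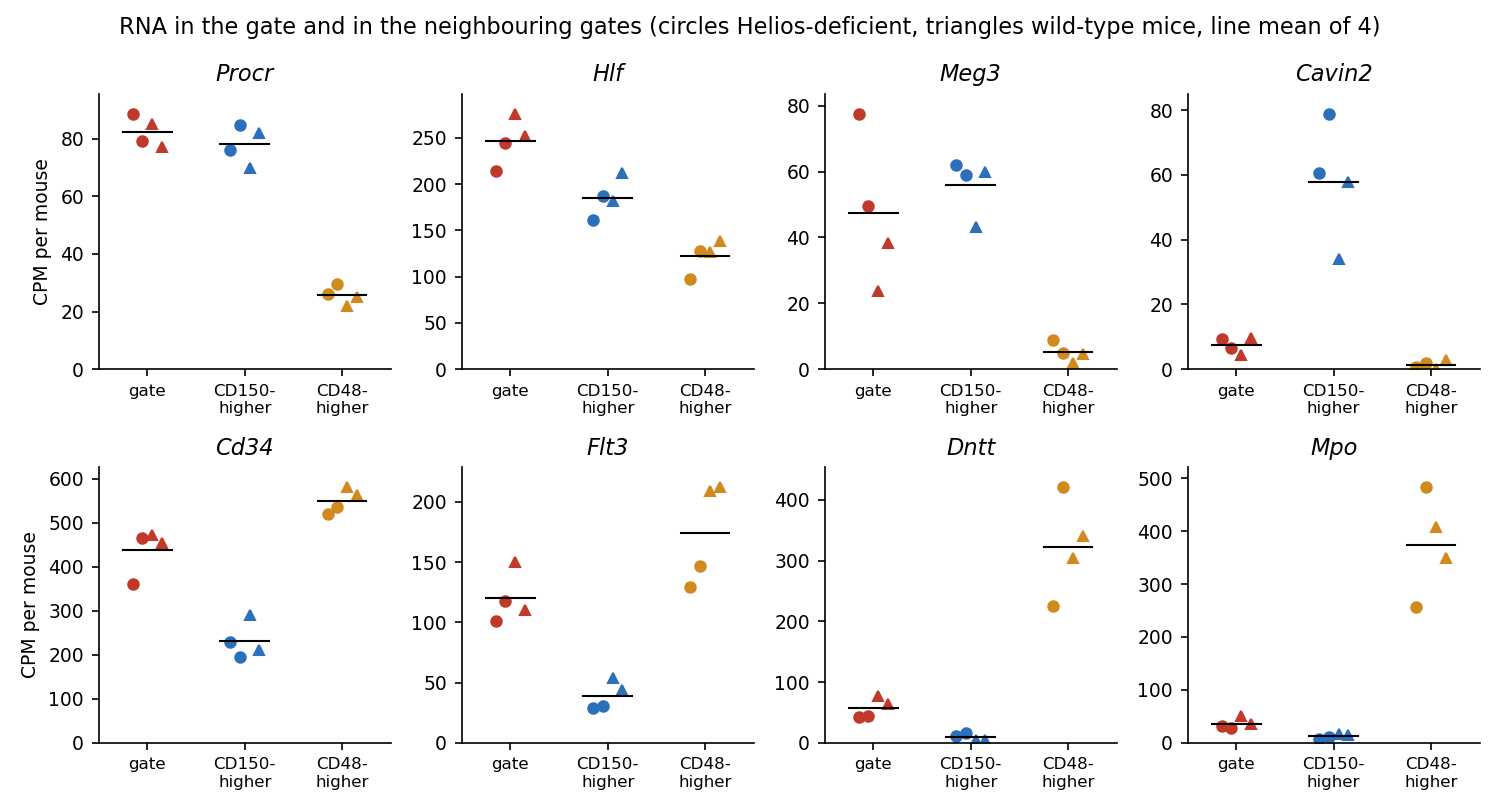
RNA levels of 8 genes in CPM per mouse (vertical, linear axes from 0) in the gate (red), CD48-low CD150-higher cells (blue) and CD48-higher CD150-low cells (orange), with circles for Helios-deficient mice, triangles for wild-type mice and a line at the mean of 4. Procr and Meg3 lie near the level of CD150-higher cells, and the gate means of Cavin2, Dntt, Mpo, Cd34 and Flt3 fall between those of the other gates.

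Against CD48-higher CD150-low cells, the gate held more RNA of stem cell genes and less of granulocyte, lymphoid and replication genes. Of 8266 genes, 628 were called higher (7.6%) and 865 lower (10.5%). In the common RNA range the counts were 160 higher (2.53%) and 177 lower (2.8%) of 6332. Of the 1493 genes called over all cells, 1237 were tested there and 1152 kept their sign, with median sizes of 0.27 in that range and 0.48 over all cells.

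Of 22 measured stem cell identity genes, 21 were higher in the gate and 0 lower, with a median of 1.04, and in the common range 18 of 21 were higher and 0 lower, with a median of 0.63. Procr stood at 88.6, 79.1, 85.1 and 76.9 CPM in the gate against 25.9, 29.4, 22.0 and 25.2 CPM in CD48-higher cells (1.65 ± 0.15). Hlf averaged 246 ± 25.4 CPM in the gate and 123 ± 18.0 CPM in CD48-higher cells (0.97 ± 0.08, and 0.63 in the common range). Mycn, a Myc family transcription factor (137 ± 26.9 against 60.6 ± 6.999 CPM), and Esam, an endothelial adhesion molecule of stem cells (76.6 ± 11.2 against 27.3 ± 8.02 CPM), were higher as well. The lowest gate value of Procr was more than any value in CD48-higher cells.

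Imprinted and quiescence genes were higher in 7 of 10 cases and lower in 1, and in the common range higher in 3 and lower in 1 of 7. Meg3, an imprinted long noncoding RNA of stem cells, stood at 77.5, 49.6, 23.8 and 38.5 CPM in the gate, against 8.88, 5.06, 1.77 and 4.64 CPM in CD48-higher cells. The difference was larger than the spread between mice (3.18 ± 0.24, edgeR adjusted p = 4.7e-37, and 2.95 in the common range). The imprinted gene Ndn, necdin, averaged 24.9 ± 8.56 CPM in the gate and 5.18 ± 2.38 CPM in CD48-higher cells (2.09 ± 0.28). Tgm2, a transglutaminase gene, averaged 24.7 ± 7.85 against 3.35 ± 1.56 CPM (2.89 ± 0.30), and Slfn2, a Schlafen gene linked to immune cell quiescence, averaged 25.7 ± 11.5 against 5.86 ± 3.16 CPM (2.09 ± 0.28). Both stayed called in the common range, at 3.24 and 2.12.

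Some platelet genes stood above their level in CD48-higher cells even though they were below that of CD150-higher cells. Of 12 measured megakaryocyte and platelet genes 6 were higher and 1 lower (Plek, −0.45), and in the common range 5 and 1. Pf4 averaged 109 ± 41.9 CPM in the gate and 24.4 ± 15.02 CPM in CD48-higher cells (2.12 ± 0.14). Mmrn1, the platelet protein multimerin, averaged 45.6 ± 13.5 against 7.23 ± 3.10 CPM (2.52 ± 0.22). Of 10 erythroid and transcription factor genes 6 were higher and 0 lower, and in the common range 2 were. Car2, a carbonic anhydrase of the erythroid lineage, averaged 1666 ± 124 CPM in the gate and 842 ± 83.7 CPM in CD48-higher cells (0.94 ± 0.04, and 0.57 in the common range).

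Lymphoid genes were lower in the gate in 8 of 17 cases and higher in 1, with a median of −0.48, and in the common range in 7 and 1. Dntt averaged 57.0 ± 16.7 CPM in the gate and 323 ± 81.4 CPM in CD48-higher cells (−2.52 ± 0.10, and −2.20 in the common range). Flt3 averaged 120 ± 21.0 against 174 ± 42.5 CPM (−0.57 ± 0.09), with wild-type mouse 1 of the gate above both Helios-deficient values of the CD48-higher cells, and it was lower in the gate of each mouse. Ighm, the immunoglobulin mu gene, was lower too (−1.42 ± 0.11). The exception was Ltb, lymphotoxin beta, a cytokine of lymphoid tissue, at 249, 259, 349 and 279 CPM in the gate against 88.1, 83.7, 134 and 148 CPM in CD48-higher cells (1.29 ± 0.08, and 0.59 in the common range).

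Granulocyte and monocyte genes were lower in 11 of 15 cases and higher in 1, Lyz2, the lysozyme gene (0.19 ± 0.07). In the common range 5 of 11 were lower and 0 higher. Mpo averaged 36.2 ± 9.61 CPM in the gate and 375 ± 95.2 CPM in CD48-higher cells (−3.41 ± 0.11, and −2.57 in the common range). Irf8, a transcription factor of monocytes and dendritic cells, averaged 6.14 ± 1.13 against 51.6 ± 14.6 CPM (−3.14 ± 0.26), and Cpa3, a mast cell protease gene, 5.63 ± 2.12 against 37.8 ± 6.31 CPM (−2.77 ± 0.28). Plac8, a gene of lineage-primed progenitors, averaged 834 ± 119.9 CPM in the gate and 2065 ± 148 CPM in CD48-higher cells (−1.34 ± 0.04, and −1.25 in the common range). Ctsg, the cathepsin G gene, averaged 4.88 ± 0.87 CPM in the gate and 127 ± 79.7 CPM in CD48-higher cells.

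Cell cycle genes were called lower in the gate, and fewer of them were tested and called in the common RNA range. Over all cells, S phase genes were lower in the gate than in CD48-higher cells in 38 of 40 cases (median −0.95), and G2 and M phase genes in 29 of 44 (median −0.78). In the common RNA range 9 of 25 S phase genes were lower, with a median of −0.37, and 1 of 12 G2 and M phase genes. Rrm2, a subunit of ribonucleotide reductase, averaged 23.3 ± 5.90 CPM in the gate and 84.3 ± 10.1 CPM in CD48-higher cells (−1.93 ± 0.16). It was not testable in the common range, and in pairs of cells matched on RNA UMIs the difference was −0.56 (edgeR adjusted p = 0.200). That match was incomplete in Helios-deficient mice 1 and 2. Their matched CD48-higher cells summed to 697886 and 855687 RNA UMIs, against 541978 and 745994 in the gate.

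**Figure D4:**
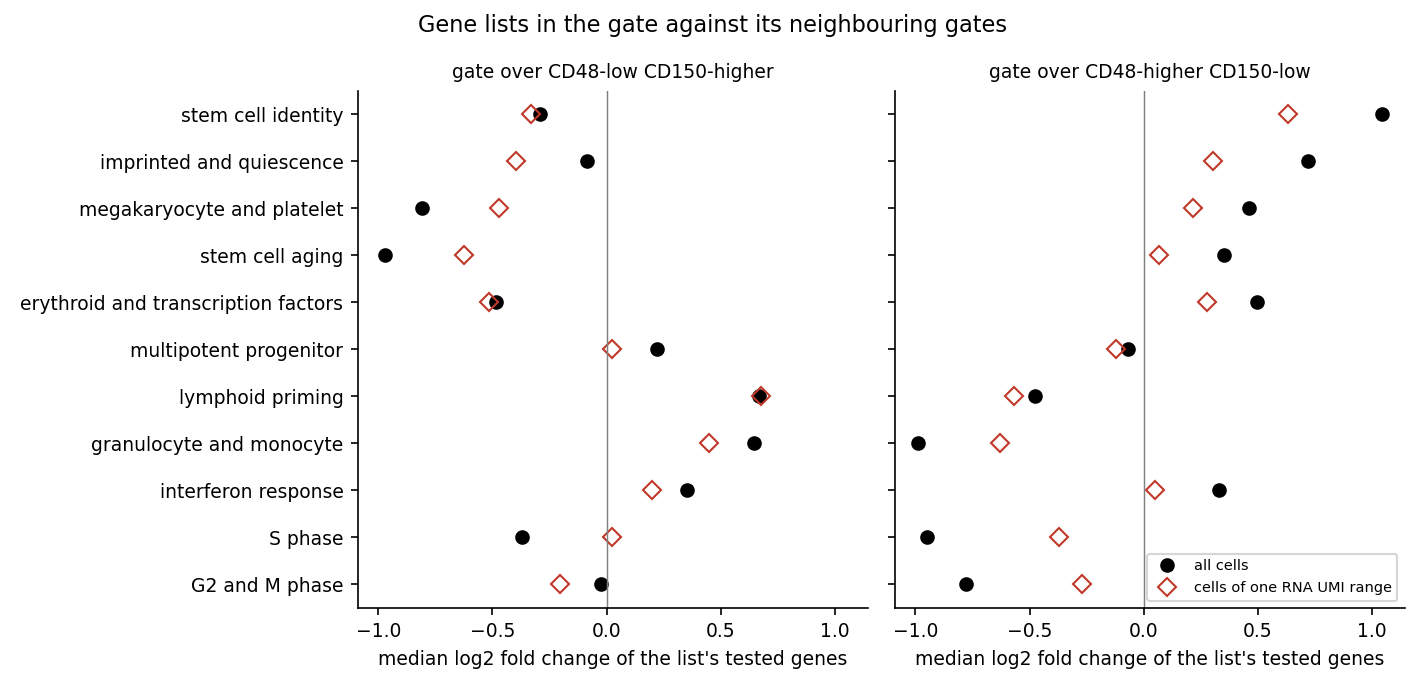
Median log2 fold change of the tested genes of 11 lists (horizontal) in the gate over CD48-low CD150-higher cells on the left and over CD48-higher CD150-low cells on the right, with filled circles for all cells and open diamonds for cells of the common RNA range. Against CD150-higher cells the lymphoid list stands at 0.67 and 0.68 in both sets of cells and the S phase list at −0.37 and 0.02, and against CD48-higher cells the stem cell list stands at 1.04 and 0.63.

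Compared with all other LSK cells together, 594 of 10167 genes were higher in the gate (5.84%) and 939 lower (9.24%). In the common RNA range 35 of 8156 were higher (0.429%) and 66 lower (0.809%). Of the 1533 genes called over all cells 1334 were tested there and 1217 kept their sign, with median sizes of 0.18 in the range and 0.45 over all cells. In cells matched on RNA UMIs, 1285 of the 1533 were tested and 1044 kept their sign, with median sizes of 0.12 there and 0.44 over all cells. Stem cell identity genes were higher in 20 of 28 cases and lower in 1 (Vwf, −1.43 ± 0.49), with 8 higher and 0 lower of 24 in the range. Granulocyte and monocyte genes were lower in 13 of 19 cases, with 6 of 14 in the range. Lymphoid genes were lower in 8 of 21 cases and higher in 2, with 7 lower and 1 higher of 17 in the range. S phase genes were lower in 37 of 40 cases and G2 and M phase genes in 34 of 48, but in 2 of 30 and 1 of 17 in the range. Interferon response genes were higher in 10 of 24 cases and lower in 1, and in the range in 0 and 1 of 22.

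Among the largest single rises, Meg3 averaged 47.4 ± 22.7 CPM in the gate and 12.9 ± 2.89 CPM in other LSK cells (1.76 ± 0.17, and 1.01 in the common range). Procr rose as well (1.19 ± 0.12, and 0.71 in the range), with Cish, a feedback inhibitor of cytokine signalling (1.16 ± 0.23), and Upp1, a uridine phosphorylase gene (1.19 ± 0.18). The last 2 stood at 0.87 and 0.58 in the range and were not called there (edgeR adjusted p = 0.0579 and 0.144). Among the largest falls, Elane, the neutrophil elastase gene, stood at 1.85, 2.68, 5.67 and 3.21 CPM in the gate against 183, 147, 61.1 and 6.72 CPM in other LSK cells. Its level in the other cells differed widely between mice, while the gate was low in all 4. Clec12a, a lectin receptor gene of myeloid cells (−2.60 ± 0.26), and Dntt (−2.22 ± 0.10) also fell and stayed called in the range, at −1.68 and −1.79. Most of these directions depend on the scale of the tags: in a gate set on tags per RNA UMI, Meg3 stood at −1.27, Procr at −0.41, Cish at −0.064, Upp1 at −0.23 and Elane at 0.84, while Clec12a (−0.94, not called) and Dntt (−2.20) kept their direction. Several of these levels were shared with CD150-higher cells, which averaged 20.1 CPM for Cish (21.0 in the gate) and 2.91 CPM for Elane (3.35 in the gate). Meg3 averaged 56.0 CPM there. Clec12a (1.20 against 5.79 CPM in the gate) and Dntt (8.86 against 57.0 CPM) were lower in CD150-higher cells than in the gate.

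Cells were also grouped by RNA alone, without the tags, into 10 clusters. The clusters rest on the same RNA as the gene comparisons above, so their shares restate those differences cell by cell and are no independent support. Of the gate, 219 of 419 cells (52.3%) fell in 1 cluster of small cells, led by Igkc, Ighm, Meg3 and Cd74. With 2 B cell markers among its 10 leading genes and no more enriched, it was given no name. It held 59.6% of CD150-higher cells and 14.7% of CD48-higher cells. Its share differed from that of all other LSK cells (25.7%, log2 ratio 1.01 ± 0.12, edgeR adjusted p = 4.99e-08), but not from that of other cells matched on RNA UMIs (47.0%, 0.15 ± 0.10, edgeR adjusted p = 0.491). The lymphoid-primed-like cluster, named from 6 enriched markers, held 10.98% of the gate, with 3, 11, 15 and 17 cells in the 4 mice. It held 2.66% of CD150-higher cells (2.03 ± 0.62, edgeR adjusted p = 0.0125) and 25.4% of CD48-higher cells (−1.13 ± 0.22, edgeR adjusted p = 8.78e-05). Against other cells matched on RNA UMIs, of which it held 19.3%, its share was lower in the gate (−0.81 ± 0.21, edgeR adjusted p = 0.0137), and that of an unnamed cluster with 10.5% of the gate was higher (1.05 ± 0.28, edgeR adjusted p = 0.0137). The erythroid-primed-like cluster held 3.34% of the gate and 12.7% of CD150-higher cells (−1.87 ± 0.57, edgeR adjusted p = 0.0125). A small lymphoid-primed-like cluster of 39 cells and the myeloid-primed-like cluster of 25 cells, whose medians were 15397 and 19727 RNA UMIs, had 0 gate cells, which allows a share of the gate of up to 0.716% by counting error. Doublets between mice had been removed through the hashtags, and no caller was run for doublets within a mouse.

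The antibody tags that did not choose the cells were lower in the gate than in all other LSK cells together. CD41, the integrin alpha subunit of platelets and megakaryocytes, averaged 29.9 tag UMIs per gate cell and 35.9 per other LSK cell. CD135 averaged 33.3 and 40.3 in the gate and in other LSK cells. Both were lower in the gate of 4 of 4 mice, with mean log2 ratios of −0.27 and −0.28 (exact sign-flip permutation test over 4 mice, two-sided p = 0.125 for each, the smallest it can give). Against cells matched on RNA UMIs the ratios were −0.20 and −0.26. Per 1000 RNA UMIs the order turned, with ratios of 0.31 and 0.30. In the neighbouring gates CD41 averaged 36.5 tag UMIs per CD150-higher cell and 30.7 per CD48-higher cell. CD135 averaged 36.0 and 37.2 there. The gate thus lay near CD48-higher cells in CD41, and these differences were not tested.

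Within the gate, cells above the gate's median of CD135 tags were set against the rest. Of 4448 genes 1 was called (0.0225%), and 218 had an unadjusted p under 0.05. Wfdc17, the gene of a secreted protein with a protease inhibitor domain, stood at 143, 409, 389 and 427 CPM in CD135-higher gate cells against 86.4, 219, 173 and 223 CPM in CD135-lower gate cells (0.97 ± 0.12, edgeR adjusted p = 1.89e-11). It was higher in each mouse. The Wfdc17 call ended with percentiles within each mouse (0.65), with 40th and 50th percentiles (0.60), in a gate set on tags per RNA UMI (0.60) and with no replicate block (0.96). Flt3 RNA, the transcript of the same receptor, averaged 131 ± 35.7 CPM in CD135-higher and 107 ± 38.7 CPM in CD135-lower gate cells, with opposite order in Helios-deficient mouse 2 (0.22 ± 0.16, edgeR adjusted p = 0.995). The count depended on the scale of the tag, since a split on CD135 tags per RNA UMI gave 316 calls.

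The question of the series, what Helios does in these cells, was then asked within the gate. The gate took up 14.9% of the cells of Helios-deficient mouse 1 (exact Clopper-Pearson 95% interval 12.05 to 18.1%) and 12.7% of those of Helios-deficient mouse 2 (10.5 to 15.2%), against 12% in wild-type mouse 1 (10.2 to 14.0%) and 9.85% in wild-type mouse 2 (7.99 to 11.96%). Intervals of this kind cover counting error only. The means were 13.8 ± 1.53% in Helios-deficient and 10.9 ± 1.52% in wild-type mice (SD, n = 2 each), a difference of 2.90 percentage points (exact permutation test, two-sided p = 0.333, the smallest that 2 against 2 mice allow). With percentiles taken within each mouse the difference was 0.0951 points, with means of 12.6% in Helios-deficient and 12.6% in wild-type mice. Such percentiles set nearly the same share of CD48-low and of CD150-low cells in every mouse. This value therefore cannot show whether the genotypes differ in share. With tags per RNA UMI the difference was 8.39 points (exact permutation test, two-sided p = 0.333). The means were then 19.04% in Helios-deficient and 10.6% in wild-type mice. Division by RNA UMIs lowers the values of cells with more RNA. Other LSK cells had medians of 9343.5 and 8977 RNA UMIs in Helios-deficient mice, against 7890 and 7858.5 in wild-type mice. The part of this depth difference in the share was not tested.

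Ikzf2 itself (chromosome 1, 69531207 to 69687351) had 109 and 133 CPM in Helios-deficient gate cells, against 99.8 and 56.1 CPM in wild-type gate cells (0.59 ± 0.20, edgeR adjusted p = 0.755). The deleted part of the gene is not given in the sources used here, and 3 prime counts can include transcripts without it, so this level checks neither the deletion nor the hashtags. Ikzf2 averaged 99.4 ± 32.0 CPM in the gate, 65.0 ± 7.03 CPM in CD150-higher and 82.1 ± 6.26 CPM in CD48-higher cells. It was called higher than in CD150-higher cells (0.64 ± 0.13) and than in all other LSK cells (0.44 ± 0.11, 71.1 ± 4.63 CPM there), but not in the common range, at 0.38 (edgeR adjusted p = 0.202) and 0.14 (edgeR adjusted p = 0.769). In wild-type mouse 2 the gate value was the lowest of the 3.

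Of 7104 genes tested between genotypes within the gate, 5 were higher in Helios-deficient mice (0.0704%) and 2 lower (0.0282%), and 345 had an unadjusted p under 0.05. In other LSK cells, which are more numerous, 56 of 11468 genes were higher (0.488%) and 60 lower (0.523%). Ctse, the cathepsin E gene (chromosome 1, 131638314 to 131675507), stood at 11.1 and 13.4 CPM in the gate of Helios-deficient mice against 87.4 and 96.2 CPM in that of wild-type mice (−2.86 ± 0.32, edgeR adjusted p = 4.69e-09). Its change in other LSK cells was −2.81 ± 0.14. Ctse was lower in both Helios-deficient mice than in both wild-type mice, in the gate and outside it.

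Ifitm3, whose protein restricts virus entry and is induced by interferon, had 1675 and 1572 CPM in Helios-deficient gate cells against 1198 and 1144 CPM in wild-type gate cells (0.46 ± 0.07, and 0.43 in other cells). Prtn3, the neutrophil proteinase 3 gene, stood at 825 and 824 CPM against 567 and 579 CPM (0.52 ± 0.09, and 0.53 in other cells). Their changes in other LSK cells were called as well. Il17re, an interleukin 17 receptor subunit gene, stood at 44.3 and 38.9 CPM in Helios-deficient and at 13.6 and 9.62 CPM in wild-type gate cells (1.77 ± 0.38, edgeR adjusted p = 0.0186). It rested on 24 and 29 UMIs in Helios-deficient and 12 and 6 UMIs in wild-type gate cells, and its change in other cells (0.40 ± 0.13) was not called (edgeR adjusted p = 0.175). Leaving out any 1 mouse ended the Il17re call.

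Cd74 and Ccl5 were also called. Cd74, the invariant chain of MHC class II, stood at 251 and 181 CPM in Helios-deficient against 135 and 93.0 CPM in wild-type gate cells (0.86 ± 0.18, edgeR adjusted p = 0.0167), and the call ended without Helios-deficient mouse 1 (0.62) or wild-type mouse 2 (0.65), and with 40th and 50th percentiles (0.32). In a gate set on tags per RNA UMI the values were −2.20 for Cd74 and −1.31 for Ccl5, opposite in direction and not called. In the gate, 1 cell held 35 of 136 Cd74 UMIs in Helios-deficient mouse 1 and 22 of 135 in Helios-deficient mouse 2. The top gate cell held 35 of 119 in wild-type mouse 1 and 7 of 58 in wild-type mouse 2. Cd74 is also abundant in B cells. The summed B cell markers, of which Cd74 is 1, came to 321 and 261 CPM in Helios-deficient gate cells and to 229 and 180 CPM in wild-type gate cells, with Ms4a1, Pax5 and Ebf1 at 0, and without cells with mature markers the difference in Cd74 was 0.83. Ccl5, a chemokine gene, stood at 101 and 131 CPM against 12.5 and 11.2 CPM (3.28 ± 0.29). In Helios-deficient mouse 1, 46 of its 55 gate UMIs came from 1 cell, and in Helios-deficient mouse 2, 95 of 98. The Ccl5 value therefore describes 2 cells.

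Several genes did not pass within the gate although they changed in other LSK cells. Selp, the P-selectin gene, stood at 36.9 and 25.5 CPM in Helios-deficient and at 10.2 and 6.41 CPM in wild-type gate cells (1.79 ± 0.44, edgeR adjusted p = 0.0814, and 1.56 in other cells). Aldh1a1 stood at 29.5 and 26.8 CPM against 9.08 and 8.02 CPM (1.67 ± 0.44, edgeR adjusted p = 0.19, and 1.43 in other cells). Cd52, a leukocyte surface glycoprotein gene, stood at 83.0 and 106 CPM against 163 and 151 CPM (−0.72 ± 0.18, edgeR adjusted p = 0.0814, and −0.63 in other cells). For all 3 the genotypes did not overlap in the gate, and the gate held fewer UMIs than the other cells. Lack of overlap is weak here, since an exact permutation test of 2 against 2 mice gives at best p = 0.333. Kit and Ly6a did not overlap between genotypes in the gate either, and were not called. Flt3 stood at 101 and 118 CPM in Helios-deficient and at 150 and 111 CPM in wild-type gate cells and overlapped (−0.26 ± 0.18). Among the lists, 1 of 22 stem cell identity genes was called between genotypes (Ifitm3), 1 of 10 granulocyte and monocyte genes (Prtn3) and 1 of 8 MHC class II genes (Cd74). Of 17 lymphoid priming genes, 31 S phase genes and 32 G2 and M phase genes 0 were called. The median of the lymphoid list was −0.21, against 0.0008 over all genes tested.

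**Figure D5:**
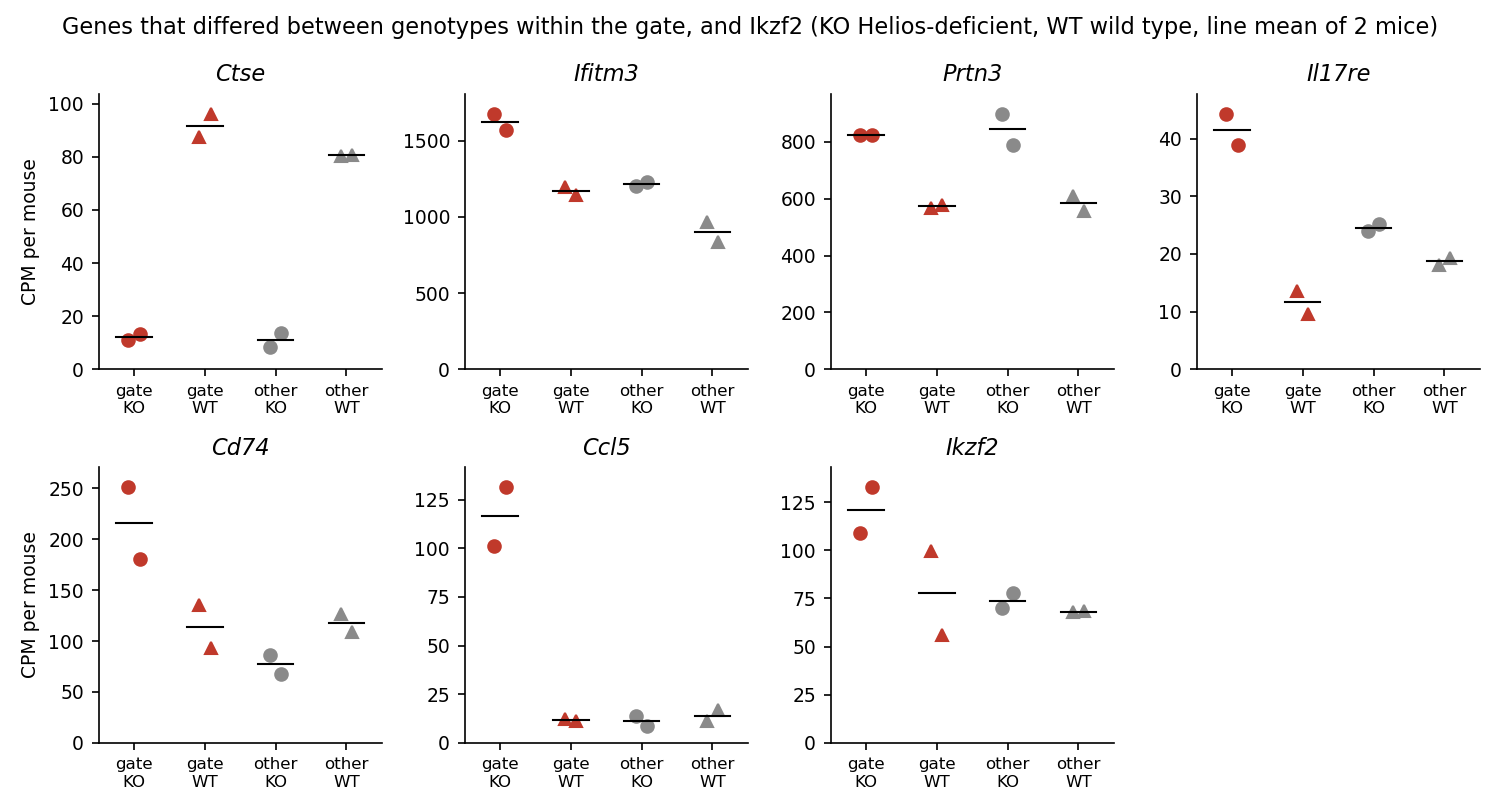
RNA levels in CPM per mouse (vertical, linear axes from 0) of 6 genes called between genotypes within the gate and of Ikzf2, in gate cells (red) and other LSK cells (grey), with circles for Helios-deficient (KO) and triangles for wild-type (WT) mice and a line at the mean of 2. Ctse, Ifitm3 and Prtn3 differ in the gate and in other cells, Ccl5 stands at 101 and 131 CPM in the Helios-deficient gate alone, and Cd74 is higher in the Helios-deficient gate and lower in Helios-deficient than in wild-type cells outside it, where single cells of wild-type mice 1 and 2 held 313 of 1195 and 241 of 840 UMIs.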

How the data were processed

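Per the file headers, the deposited matrix holds raw UMI counts of 31053 genes, 4 antibody tags and 4 hashtags for 4108 cell barcodes of 1 run. Cell Ranger, Seurat 3.0.0 and mm10 are named in the submitters' processing notes, and the matrix header names software 3.0.2. The authors deposited a hashtag call per barcode (a category, not a number), with 3842 barcodes of 1 mouse, 231 doublets and 35 negatives, and a list of 3470 retained cells, used here, whose mitochondrial share reaches at most 4.999%. All barcodes were shared by RNA, tags and hashtags. Doublets within a mouse were not removed, and 82.8 (2.16%) would be expected from the rate between mice.

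UMI counts were summed per mouse and gate and tested with edgeR's quasi-likelihood fit (version 4.0.16, R 4.3.3; trimmed mean normalisation, default filter on low counts, Benjamini-Hochberg threshold 0.05). Gates of the same mouse share that mouse, which was the block; standard errors are the size of the log2 fold change over the root of its F value. DESeq2 1.42.0 was an alternative. Cells were clustered with scanpy 1.11.5 (1500 variable genes, 30 components, 20 neighbours, resolution 0.5). The fits were also run on simulated counts, drawn from 1 pooled profile without set differences between mice or single cells that hold most UMIs. That run therefore does not check calls that rest on single cells. Named genes are the 10 largest called changes each way (5 for the neighbouring gates, the CD135 split and the difference of genotype effects) with a mean of at least 10 CPM and all mice on 1 side, up to 4 members of each of 23 lists with the smallest p, and the genes of the sort, the tags and Helios. Hlf, Procr, Pf4, Car2, Cebpa, Plek, Lyz2 and Vwf were also named where they fall outside this rule, after their values were seen. Comparisons restricted to cells of 1 RNA range, or to cells matched on RNA UMIs, were added after the depth difference was seen. A comparison with CD48-low cells above the 90th percentile of CD150, also added after the data were seen, gave 342 calls of 5308 genes. The gate, the lists and the named genes were chosen with earlier results of these data known. The results of some genes are not reported here.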

Additional observations from a re-analysis of the deposited data

Results flagged for a closer look

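The genotype difference in the gate was set against that in other LSK cells of the same mice by a test of the difference itself (edgeR, mouse as block). Of 10755 genes 13 were called (0.121%), and in cells of the common RNA range 2 were, of which Cd74 is the only one shared with the 13. Values are the log2 genotype effect in the gate minus that in other LSK cells.

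For Osgin1, Snapin, Sox4 and Hsp90aa1, 4 of the 13 genes, no single cell held most of the UMIs of a mouse. Osgin1 (2.61) stood at 18.5 and 21.4 CPM in Helios-deficient and at 4.54 and 4.81 CPM in wild-type gate cells, and at 4.82 and 5.21 CPM against 7.42 and 6.85 CPM in other LSK cells. Its gate levels rest on 10 and 16 UMIs in Helios-deficient and 4 and 3 UMIs in wild-type mice. In wild-type mouse 1, 1 cell held 2 of the 4. Snapin (0.97), a gene of vesicle fusion, stood at 94.1 and 80.4 CPM in Helios-deficient against 43.1 and 57.7 CPM in wild-type gate cells, with 46.3 and 49.0 CPM against 57.5 and 49.4 CPM outside the gate. Sox4 (0.43) had 779 and 660 CPM in Helios-deficient against 694 and 684 CPM in wild-type gate cells, which overlap, and 454 and 446 CPM against 580 and 598 CPM in other cells, which do not. Hsp90aa1 (−0.38), a heat shock protein gene, had 864 and 763 CPM in Helios-deficient against 774 and 1032 CPM in wild-type gate cells, and 1327 and 1115 CPM against 992 and 1072 CPM in other cells. Ms4a3 (−3.46), a gene of granulocyte precursors, had 1.85 and 2.68 CPM in Helios-deficient against 6.81 and 12.8 CPM in wild-type gate cells, and 45.3 and 34.6 CPM against 14.4 and 13.7 CPM outside it. It rests on 1 and 2 UMIs in Helios-deficient and 6 and 8 UMIs in wild-type gate cells, and outside the gate 1 cell of Helios-deficient mouse 1 held 71 of 235 UMIs. The order of the genotypes outside the gate was opposite to that in the gate for Osgin1, Snapin and Ms4a3.

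Cd74 (1.498) was higher in Helios-deficient gate cells and lower in other Helios-deficient cells (−0.62, edgeR adjusted p = 0.0322), and the summed B cell markers of the other cells reached 161 and 1171 CPM in Helios-deficient and 4623 and 188 CPM in wild-type mice. Outside the gate 1 cell held 313 of 1195 Cd74 UMIs in wild-type mouse 1 and 1 held 241 of 840 in wild-type mouse 2. Inside it 1 cell held 35 of 136 in Helios-deficient mouse 1 and 1 held 35 of 119 in wild-type mouse 1. The part of B cells in this difference was not tested. C1qtnf12 (−1.30) had 37 of its 68 UMIs in 1 gate cell of wild-type mouse 2.

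Single cells also led the other 6. Ccl5 (3.60) rested on 1 gate cell in each Helios-deficient mouse. Igha (−8.27) had 7218 of 7261 UMIs in 1 cell outside the gate of Helios-deficient mouse 2. In wild-type mouse 2, 1 gate cell held 32 of 32 UMIs of Mt2 (−6.60), 1 held 13 of 14 of Rhd (−11.22), 1 held 21 of 28 of Mt1 (−2.01) and 1 held 17 of 27 of Aqp1 (−2.15).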

How the results depend on the processing

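Over 129 genes and comparisons, 1691 of 1999 values under another setting kept direction and side of the threshold, 241 lost the call, 17 gained one, 10 moved and 40 turned. The causes were not tested. The scale of the tags mattered most: dividing them by RNA UMIs gave a gate of 484 cells that shared 138 (32.9% of this gate, 28.5% of that one) and had a median of 12754.5 RNA UMIs, against 7454 in the rest.

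Calls against other LSK cells numbered 1533. They were 666 with DESeq2, 1012 with 20th and 30th percentiles, 50 in cells matched on RNA UMIs and 101 in the common RNA range. Against CD150-higher cells the 337 calls were 61 with DESeq2, 204 with no replicate block, 197 and 667 with 20th and 30th or 40th and 50th percentiles, 1933 with tags per RNA UMI, 155 matched and 127 in the range. Against CD48-higher cells the 1493 calls were 485 with DESeq2, 971 with 20th and 30th percentiles, 865 with tags per RNA UMI, 338 matched and 337 in the range. The match to CD48-higher cells was incomplete in Helios-deficient mice. The CD135 split gave 5 calls without the filter, 0 with no replicate block, 4 without cells with mature markers, 2 with percentiles within each mouse, 36 with a gate per RNA UMI and 316 with CD135 per RNA UMI. Between genotypes in the gate the 7 calls were 2 with DESeq2, 12 without the filter, 13 without cells with mature markers, 4 and 25 with 20th and 30th or 40th and 50th percentiles, 15 with percentiles within each mouse and 11 per RNA UMI. The 13 calls of the difference between genotype effects were 2 with DESeq2, 4 with 40th and 50th percentiles, 8 per RNA UMI, 2 matched and 2 in the range. Cluster calls numbered 7 per RNA UMI, against 2 over all cells, and the 2 in matched cells are other clusters. Ratios per 1000 RNA UMIs were 0.31 for CD41 and 0.30 for CD135.

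With tags per RNA UMI the following log2 values turned. Against other LSK cells these were Meg3 −1.27, Abcg3 −0.48, Tinagl1 −0.63, Upp1 −0.23, Procr −0.41, Bdh2 −0.32, Cish −0.064, Jam3 −0.058, Ikzf2 −0.48, Ly6a −0.48, Kit −0.17, Hlf −0.18, Ltb −0.89, Elane 0.84, Ly6c2 1.42, Pclaf 0.53, Hist1h1b 0.78, Itga2b 1.14 and Top2a 0.96. Against CD150-higher cells they were Tuba8 0.75, Itga2b 0.32, Tyms 1.18, Ikzf2 −0.15, Ly6a −0.60, Kit −0.38, Hlf −0.54, Sox4 −0.12, Rtp4 −0.29 and Il2rg −0.43, and against CD48-higher cells Ikzf2 −0.30. Between genotypes in the gate they were Ccl5 −1.31 and Cd74 −2.20, and for the difference between genotype effects Ccl5 −2.36, Cd74 −2.14, Ms4a3 0.82, Aqp1 0.18, C1qtnf12 0.53 and Rhd 3.13. In matched cells Kit (−0.093) and Itga2b (0.11) turned against other LSK cells.

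Leaving out 1 mouse gave 969 to 1564 calls against other LSK cells, the lowest being 969 when Helios-deficient mouse 2 was left out and 981 when wild-type mouse 1 was. It gave 162 to 327 against CD150-higher cells (162 when Helios-deficient mouse 2 was left out, 205 for wild-type mouse 1), 966 to 1553 against CD48-higher cells (966 without wild-type mouse 1), 2 to 5 for the CD135 split, 6 to 22 between genotypes (12 when Helios-deficient mouse 1 was left out, 17 and 22 for wild-type mice 1 and 2), 7 to 17 for the difference of effects (7 without wild-type mouse 2) and 2 to 4 for clusters. The difference in the share of cells in the gate by genotype ranged from 1.82 to 3.98 points, CD41 from −0.29 to −0.26 and CD135 from −0.28 to −0.27. With 1 mouse left in a genotype, that mouse is assumed to vary like the others. Genes of low level are limited by depth, since the smallest gate summed to 541978 RNA UMIs.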
